A study of Bos taurus with 16 samples.

Results

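The genes described here are 72 ion channel genes of bovine luteal cells: the voltage-gated families of potassium, sodium and calcium channels with their accessory subunits, and the TRP cation channels. They were chosen by name alone, as genes whose symbols begin with KCN, SCN, CACN or TRP followed by the letters and digits of those families, and by level: 4 or more of the 16 samples had to reach a normalized count of 10. A normalized count is the number of reads assigned to a gene divided by a size factor of the sample. Of 143 genes with such names among 18705 in the table, 72 passed that filter, 38 of them potassium channel genes, 9 sodium channel genes, 12 calcium channel genes and 13 TRP genes. The label is wider than the biology: inward rectifiers, tandem-pore (K2P) channels and calcium-activated KCNN channels carry the KCN name but are not opened by voltage, and TRPC4AP encodes a partner of a TRP channel and no channel.

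The samples were primary mixed luteal steroidogenic cells, the progesterone-secreting cells of the corpus luteum, dissociated from corpora lutea of cattle on cycle days 10 to 12 and cultured with luteinizing hormone (LH) at 10 ng/mL in every group. For 24 hours the IFNT group received interferon tau at 1 ng/mL, the IFNT+PGF2A group interferon tau at 1 ng/mL with prostaglandin F2 alpha at 10 ng/mL, the PGF2A group prostaglandin F2 alpha at 10 ng/mL alone, and the control group no treatment, with 4 samples a group. Each sample pooled triplicate wells, and the labels do not say whether the sample numbers 1 to 4 stand for animals or cultures, so p-values measure only the spread between these samples. The series asks how IFNT and PGF2A, alone and together, alter transcripts of luteal cells.

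Channels of these families set the voltage across the cell membrane and let calcium in. Potassium channels pull the membrane toward rest, sodium and voltage-gated calcium channels depolarise it, and TRP channels are cation pores opened by lipids, calcium, stretch, heat or oxidation. In luteal cells PGF2A acts through a receptor coupled to Gq, which raises cytosolic calcium, while IFNT, the pregnancy signal of ruminants, acts through the type I interferon receptor.

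The libraries held between 23786067 and 25906276 assigned reads. Library IFNT 4 stood apart: its median absolute deviation from the median of all libraries was 0.415 on the log2 scale, against 0.143 to 0.256 for the other 15. The interferon-induced gene MX1 averaged 80080 ± 17130 normalized counts with IFNT and 1442 ± 825 in control (SD, n = 4 each). Each of the 7 luteal steroidogenic markers, among them STAR, CYP11A1 and LHCGR, was above the filter, and so were all 12 markers each of endothelial, pericyte and smooth muscle, and fibroblast cells. The RNA is from bulk cultures, so fewer cells of a type and less RNA per cell cannot be told apart.

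IFNT moved channel transcripts in both directions. Against control, 9 of 72 members rose and 8 fell (23.6%). Of all 14122 genes tested 24% were called, 13.1% higher and 10.9% lower, so the share of channel genes called was near the background. With PGF2A present in both groups, 10 rose and 6 fell (22.2%), and of all genes 20.9% were called, 12.3% higher and 8.54% lower. The test was limma on log2(normalized count + 0.5), with p-values adjusted by the Benjamini-Hochberg method over the 14122 genes; adjusted p-values here come from that fit unless said otherwise. Samples with the same number deviated together across groups, so a second limma fit had the sample number as a block. It called 17 higher and 15 lower of 72 in IFNT against control (44.4%, background 43.5%, of which 21.3% higher and 22.1% lower). In IFNT+PGF2A against PGF2A it called 15 higher and 18 lower (45.8%, background 40.3%, of which 20.9% higher and 19.5% lower). Of these limma calls, 24 of 32 and 19 of 33 were kept in each of 4 such fits that left out 1 number. With the block, edgeR called 35 of 72 members in each comparison (background 43.4% and 40.6%). Without library IFNT 4 the fit without the block called 11 higher and 9 lower (background 30.3%) and, with PGF2A, 11 higher and 7 lower (background 29%). With the block it called 39 in each without IFNT 4 (background 52.1% and 53.2%), and 38 and 37 without number 4 (background 56.1% and 53.7%).

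The median absolute log2 change of the 72 members was 0.48 in IFNT against control, beside 0.28 over all genes, and 0.43 in IFNT+PGF2A against PGF2A, beside 0.26. Members also had the larger median where none was called, 0.20 beside 0.08 in PGF2A against control. The larger medians are therefore not particular to IFNT. Groups did not overlap for 15 members in IFNT against control, where 22% of all genes had groups that did not overlap, and for 16 members in IFNT+PGF2A against PGF2A, where 29.9% did. IFNT against control and IFNT+PGF2A against PGF2A share no library but share the sample numbers. Of the 17 members called in the first and the 16 called in the second, 14 were called in both, which is 82.4% and 87.5% of each list, and each of the 14 moved the same way. Over all genes 2608 were called in both, 77.1% and 88.5% of each list, and 0 of them moved in opposite directions, so the overlap of the members was near that of all genes. KCNK2, KCNT1 and SCN8A, 3 of the members called, passed the filter only through the samples in which they were high, with IFNT for KCNK2 and KCNT1 and without it for SCN8A. KCNT1, CACNA2D1 and KCNMA1 passed in IFNT against control and not with PGF2A, and SCN7A and SCN9A the other way round, but the interaction test, which compares the 2 IFNT effects, called 0 of the 72 (background 0%).

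**Figure D1:**
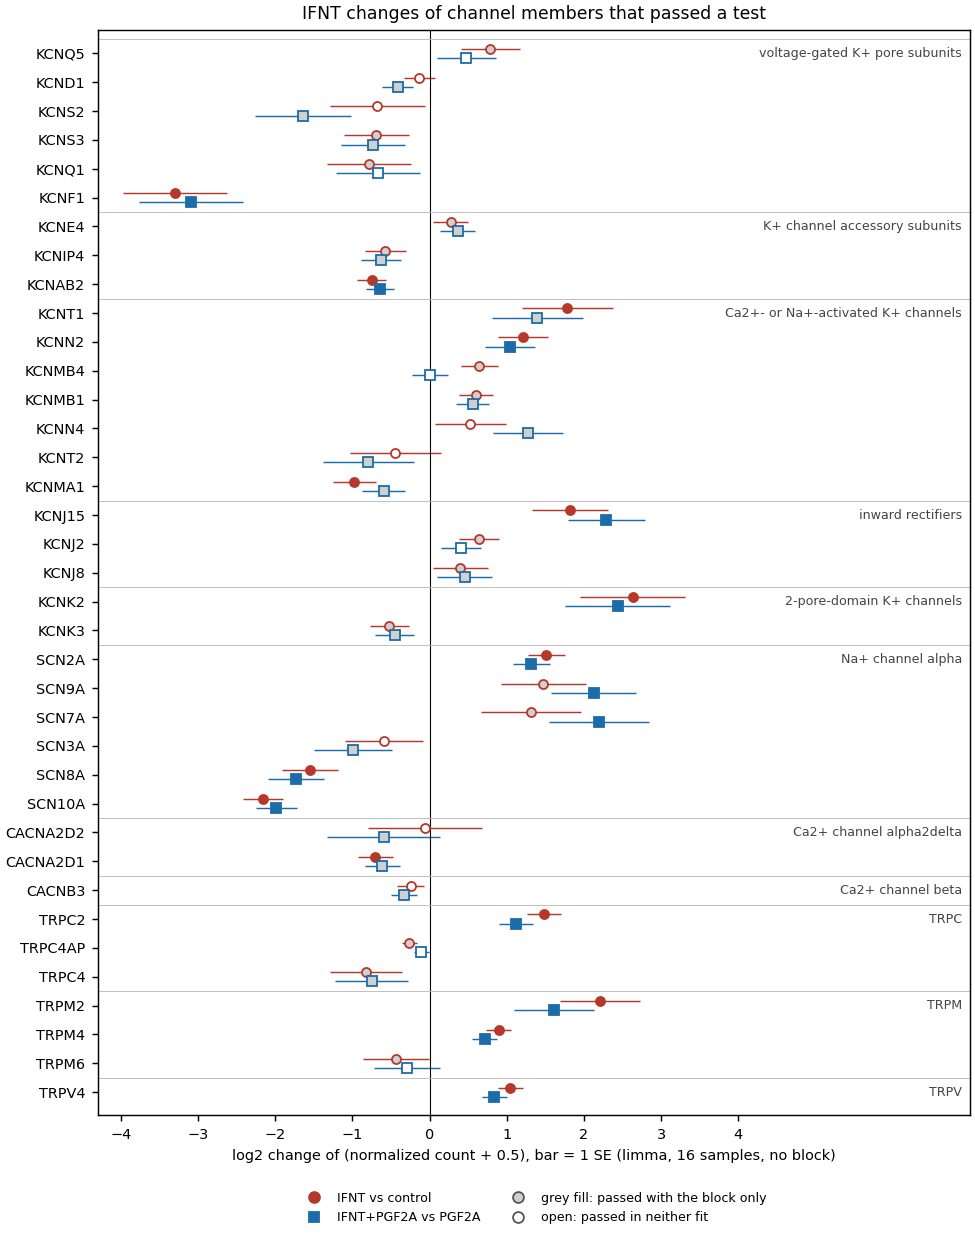
Log2 changes (x axis; points with bars of 1 SE, limma without the block) of 37 of the 39 channel members called in at least 1 of the IFNT comparisons, by class down the page. Filled points passed without the block, grey points only with it, and open points in neither; KCNF1 lies farthest to the left at -3.30 and KCNK2 farthest to the right at 2.63.

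Among sodium channels, pore-forming alpha subunits were called in both directions with IFNT. SCN10A fell in both IFNT comparisons, and SCN2A rose in both. SCN8A was called lower in both, but reached 10 normalized counts in 0 of 8 samples with IFNT and 8 of 8 without it, so its inclusion and its direction are not independent. Of 8 alpha subunits tested, 1 rose and 3 fell in IFNT against control, and 3 rose and 3 fell in IFNT+PGF2A against PGF2A. Of all genes 13.1% rose and 10.9% fell in the first comparison, and 12.3% and 8.54% in the second, and nothing is read about the class from 8 genes.

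SCN10A encodes the tetrodotoxin-resistant sodium channel of sensory neurons, and it had the smallest adjusted p among the members in both IFNT comparisons. It had 35.4, 45.9, 30.8 and 36.9 normalized counts in IFNT samples 1 to 4, against 117, 211, 176 and 176 in control samples 1 to 4. SCN10A had 31.3, 58.7, 28.0 and 30.4 normalized counts in IFNT+PGF2A samples, against 118, 212, 126 and 128 in PGF2A samples. All 8 samples with IFNT lay below all 8 without it, and sample 2 was highest in each group. The change was -2.16 (SE 0.26, adjusted p = 1.76e-05), and with PGF2A -1.99 (SE 0.26, adjusted p = 4.42e-05).

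SCN8A, a sodium channel of axons, was a low transcript, with 5.90, 4.88, 5.14 and 3.08 normalized counts in IFNT samples, against 17.2, 18.7, 10.5 and 13.2 in control samples. IFNT+PGF2A samples had 2.93, 6.07, 2.08 and 5.07 normalized counts of SCN8A, against 10.5, 11.0, 18.9 and 15.7 in PGF2A samples. Its groups did not overlap in either comparison (-1.55, adjusted p = 0.00563, and -1.74, adjusted p = 0.00284), but the second call was lost without sample number 3 (adjusted p = 0.0572).

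SCN2A, a sodium channel of central neurons, rose. It had 157, 238, 281 and 124 normalized counts with IFNT, against 74.7, 64.4, 62.8 and 64.0 in control. SCN2A had 151, 180.1, 235 and 170.3 with IFNT+PGF2A, against 53.7, 69.7, 86.4 and 85.6 with PGF2A. The lowest SCN2A value with IFNT, in library IFNT 4, was still above every sample without IFNT. The change was 1.51 (SE 0.24, adjusted p = 0.000221), and with PGF2A 1.32 (SE 0.24, adjusted p = 0.000798). SCN3A, its neighbour in the RefSeq gene order and a sodium channel of developing neurons, was not called higher. It had 14.8, 39.1, 36.0 and 12.3 with IFNT, against 23.0, 42.0, 72.3 and 19.3 in control. SCN3A had 12.7, 36.4, 26.0 and 23.3 with IFNT+PGF2A, against 26.8, 46.8, 94.4 and 39.3 with PGF2A. SCN3A was lower in 4 of 4 same-number pairs of each comparison, but passed only with PGF2A and the block (-1.0, adjusted p = 0.00926 with the block and 0.19 without), a call lost with the block without number 1 or 3 (up to 0.0978).

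SCN9A and SCN7A stand on either side of 1 gene in the RefSeq order. SCN9A also overlaps a gene that is in the count data, and shared exons were not looked for, so its counts are uncertain. SCN9A encodes the sodium channel of pain-sensing neurons, and SCN7A a related channel known as a sodium sensor. SCN9A had 83.6, 150.5, 116 and 19.5 normalized counts with IFNT, against 30.6, 47.6, 30.4 and 10.2 in control. SCN9A had 69.3, 114, 104 and 63.9 with IFNT+PGF2A, against 15.3, 25.9, 22.8 and 14.8 with PGF2A. It was higher in 4 of 4 pairs of both comparisons, and the IFNT and control ranges overlapped through IFNT 4 alone. The test passed with PGF2A (2.13, SE 0.55, adjusted p = 0.0115) and not without it (1.48, SE 0.55, adjusted p = 0.0641), where the fit without library IFNT 4 gave adjusted p = 0.0017. In the fit without the block the PGF2A call was lost without sample number 1 (adjusted p = 0.0773) and without number 3 (0.0882). With the block SCN9A passed in both comparisons. Both of those calls were kept without any 1 number (adjusted p up to 0.0317, and with PGF2A up to 0.00363). SCN7A had 29.5, 86.9, 41.1 and 18.5 with IFNT, against 22.0, 24.3, 14.3 and 6.10 in control. SCN7A had 32.2, 114, 50.9 and 28.4 with IFNT+PGF2A, against 12.5, 32.9, 4.97 and 4.92 with PGF2A; groups overlapped both times. SCN7A passed with PGF2A alone (2.19, adjusted p = 0.0248), a call lost in 6 of 20 leave-outs (adjusted p up to 0.21: IFNT+PGF2A 2 or 3, PGF2A 3 or 4, number 1 or number 3), and with the block in both (adjusted p = 0.00469 and 0.000115). SCN1A passed in no fit. Since several of these channels are known from neurons, neuron and glia markers were listed: 4 of 8 could be tested, 0 rose and 2 fell in IFNT against control, and their summed level was 1749 to 3692 normalized counts with IFNT and 2319 to 4197 in control; their part in the sodium channel changes was not tested.

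**Figure D2:**
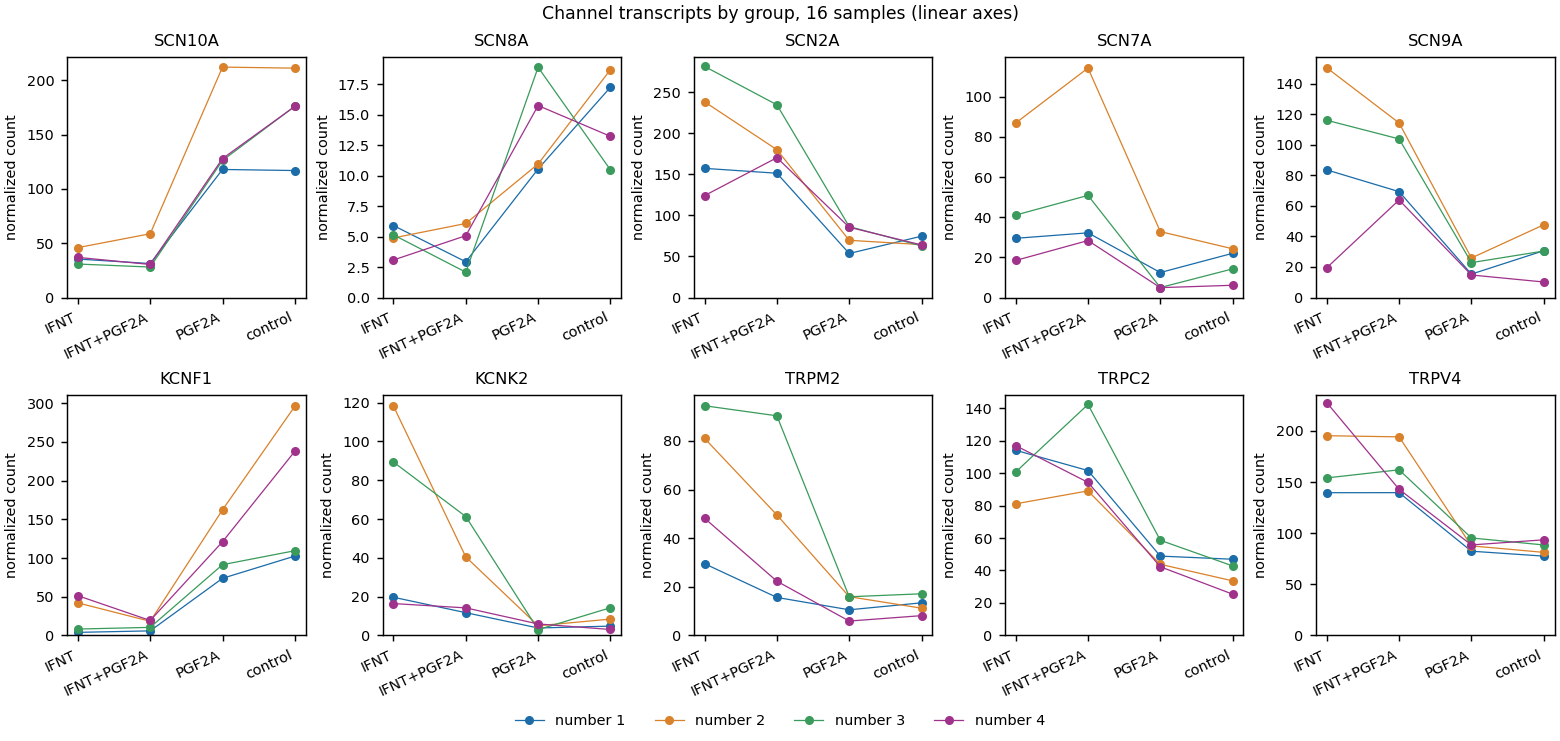
Normalized counts (y axes, linear) of 10 channel transcripts in each of the 16 samples, by group along the x axis; lines join samples with the same number. SCN10A, SCN8A and KCNF1 lie lower in both groups with IFNT, and SCN2A, TRPC2 and TRPV4 higher, with no overlap between a group with IFNT and its own group without it.

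Of 15 voltage-gated potassium channel pores, 0 rose and 2 fell in each IFNT comparison without the block, KCNF1 among them. The share called was below that of all genes, 24% in IFNT against control and 20.9% in IFNT+PGF2A against PGF2A. KCNF1, KCNS2 and KCNS3 are electrically silent subunits that assemble with other pore subunits and alter the channels they join. KCNF1 had the largest fall of all 72 members. It had 3.93, 42.0, 8.22 and 51.3 normalized counts with IFNT, against 102, 296, 109 and 238 in control. KCNF1 had 5.86, 18.2, 10.4 and 19.3 with IFNT+PGF2A, against 73.8, 162, 91.4 and 121 with PGF2A. No sample with IFNT reached the lowest sample without it. The change was -3.30 (SE 0.67, adjusted p = 0.00204), and with PGF2A -3.09 (SE 0.67, adjusted p = 0.00377).

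KCNS3 had 117, 226, 124 and 57.4 normalized counts with IFNT, against 180.1, 323, 192 and 115 in control. KCNS3 had 81.1, 138, 103 and 59.8 with IFNT+PGF2A, against 149, 234, 179.8 and 83.6 with PGF2A. It was lower in 4 of 4 pairs of both comparisons and passed only with the block (-0.69, adjusted p = 0.000396, and -0.73, adjusted p = 0.000267, against 0.26 and 0.247 without it), calls kept without any 1 number. KCNS2, at 1.04 to 38.3 normalized counts over the 16 samples, passed only with the block and PGF2A (-1.64, adjusted p = 0.0319), a call lost with the block without number 1, 2 or 3 (up to 0.161); it was lower in 3 of 4 pairs.

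Further pores passed with the block alone. KCNQ1, a delayed rectifier of heart and epithelia, had 8.85, 30.3, 26.7 and 18.5 normalized counts with IFNT, against 21.1, 56.0, 48.5 and 21.3 in control. KCNQ1 had 8.79, 34.4, 16.6 and 10.1 with IFNT+PGF2A, against 23.0, 47.8, 31.8 and 9.84 with PGF2A. It was lower with IFNT in 4 of 4 pairs (-0.78, adjusted p = 0.0354 with the block, a call lost without number 1, 2 or 3, up to 0.138) and in 3 of 4 with PGF2A. KCNQ5, a low-threshold potassium channel of neurons and smooth muscle, went the other way. It had 23.6, 35.2, 21.6 and 47.2 with IFNT, against 12.5, 29.0, 9.52 and 26.4 in control (0.78, adjusted p = 0.00466 with the block, a call kept without any 1 number). KCNQ5 had 28.3, 52.6, 30.1 and 57.8 with IFNT+PGF2A, against 25.9, 39.8, 21.9 and 30.5 with PGF2A. In that comparison KCNQ1 and KCNQ5 passed in neither fit. KCND1, an A-type channel, had 85.5, 133, 91.4 and 115 with IFNT, against 103, 165, 86.6 and 118 in control. KCND1 had 74.2, 99.2, 92.4 and 73.0 with IFNT+PGF2A, against 108, 131, 109 and 101 with PGF2A. The last pair of groups did not overlap, and KCND1 passed there with the block (-0.41, adjusted p = 0.0272), a call lost with the block without number 1 or 2 (up to 0.138).

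Among accessory subunits of potassium channels, KCNAB2 fell, KCNIP4 fell with the block and KCNE4 rose with the block. KCNAB2, a cytoplasmic beta subunit with an aldo-keto reductase fold, had 65.9, 81.1, 70.9 and 128 normalized counts with IFNT, against 119.7, 155, 147 and 145 in control, where IFNT 4 alone reached into the control range. With PGF2A it had 83.0, 95.1, 87.2 and 105 in IFNT+PGF2A samples, against 124, 158, 149 and 149.5 in PGF2A samples, with no overlap. KCNAB2 changed by -0.75 (adjusted p = 0.00773) and -0.64 (adjusted p = 0.0218). The first call was lost without number 2 (0.0866) or number 3 (0.109). The second was lost in 8 of 20 leave-outs (up to 0.157: IFNT+PGF2A 1 or 3, PGF2A 2, 3 or 4, and number 1, 2 or 3). With the block both KCNAB2 calls were kept without any 1 number (adjusted p up to 0.0141, and with PGF2A up to 0.0264). KCNIP4, a calcium-binding partner of KCND channels, had 91.4, 148, 130.5 and 173 with IFNT, against 149, 252, 193 and 206 in control. KCNIP4 had 66.4, 92.1, 80.0 and 142 with IFNT+PGF2A, against 93.9, 170.2, 163 and 153 with PGF2A. It was lower in 4 of 4 pairs each time (-0.57 and -0.63, adjusted p = 0.00484 and 0.00292 with the block), the second a call lost with the block without number 3 (0.0528). KCNE4, a membrane subunit that inhibits KCNQ1 channels, had 4863, 5866, 3613 and 3936 with IFNT, against 4021, 5025, 3324 and 2849.5 in control. KCNE4 had 3899.8, 4912, 3271 and 3222 with IFNT+PGF2A, against 3213, 4109.7, 2831 and 1978 with PGF2A. It was higher in 4 of 4 pairs each time, by small steps (0.27 and 0.36, adjusted p = 0.0192 and 0.00382 with the block), the first a call lost with the block without number 1 or 2 (up to 0.0927).

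Potassium channels gated by calcium or sodium inside the cell moved both ways. KCNN2, a small-conductance calcium-activated channel, rose in both comparisons, with 84.6, 34.2, 46.2 and 55.4 normalized counts with IFNT, against 36.4, 19.6, 19.0 and 18.3 in control. KCNN2 had 53.7, 42.5, 29.1 and 49.7 with IFNT+PGF2A, against 15.3, 24.9, 28.8 and 15.7 with PGF2A. Control 1 lay within the IFNT range, and the groups with PGF2A did not overlap. The change was 1.21 (SE 0.32, adjusted p = 0.013), a call lost without number 3 (0.0644) or 4 (0.0647), and with PGF2A 1.04 (SE 0.32, adjusted p = 0.0315), a call lost in 8 of 20 leave-outs (up to 0.149: IFNT+PGF2A 1, 2 or 4, PGF2A 1 or 4, and number 1, 2 or 4). KCNT1, a sodium-activated channel, was near the filter, with 8.85, 26.4, 15.4 and 8.21 with IFNT, against 2.87, 5.60, 2.85 and 3.05 in control. KCNT1 had 9.77, 11.1, 12.5 and 2.03 with IFNT+PGF2A, against 0.958, 5.97, 2.98 and 1.97 with PGF2A. IFNT and control did not overlap. The 4 samples that brought KCNT1 past the filter all held IFNT, so its inclusion and its direction are not independent. It passed without PGF2A (1.79, adjusted p = 0.0363), a call lost in 8 of 20 leave-outs (up to 0.201: IFNT 2 or 3, control 1, 3 or 4, and number 1, 2 or 3). With PGF2A KCNT1 passed only with the block (1.40, adjusted p = 0.0179), a call lost with the block without number 1, 2 or 3 (up to 0.155). KCNT2, the other sodium-activated channel, had 52.1, 20.5, 27.7 and 57.4 with IFNT, against 68.0, 43.0, 29.5 and 69.1 in control. KCNT2 had 43.9, 15.2, 9.35 and 70.0 with IFNT+PGF2A, against 64.2, 33.8, 21.9 and 87.5 with PGF2A, lower in 4 of 4 pairs each time; it passed only with PGF2A and the block (-0.79, adjusted p = 0.0246), a call lost with the block without number 1, 2 or 3 (up to 0.128).

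The large-conductance BK channel has a pore, KCNMA1, and beta subunits that tune its calcium response. KCNMA1 had 122, 133, 175 and 74.9 normalized counts with IFNT, against 179, 286, 312 and 201 in control, with no overlap. KCNMA1 had 142, 209, 217 and 162 with IFNT+PGF2A, against 175, 291, 392 and 273 with PGF2A, with overlap. The pore transcript fell without PGF2A (-0.98, SE 0.28, adjusted p = 0.0184), a call lost without control 2 (0.0553), control 3 (0.0616), number 2 (0.118) or number 4 (0.0638), and with PGF2A it passed with the block alone (-0.60, adjusted p = 0.00895), a call lost with the block without number 3 (0.0928). KCNMB1, the beta subunit of smooth muscle, had 226, 266, 308 and 365 with IFNT, against 161, 182, 175 and 248 in control. KCNMB1 had 183, 225, 254 and 341 with IFNT+PGF2A, against 137, 143, 172 and 222 with PGF2A. It was higher in 4 of 4 pairs each time (0.60 and 0.56, adjusted p = 6.63e-05 and 0.000132 with the block, and 0.0536 and 0.0785 without), calls kept without any 1 number. KCNMB4, a beta subunit best known in brain, had 109, 110.4, 115 and 124 with IFNT, against 60.3, 65.4, 69.5 and 105 in control. KCNMB4 had 62.5, 55.6, 91.4 and 100.4 with IFNT+PGF2A, against 65.1, 54.8, 84.4 and 104 with PGF2A. The IFNT group lay above the other groups, and KCNMB4 passed in IFNT against control with the block (0.64, adjusted p = 0.00226) but not with PGF2A (0.0058). KCNMB4 kept that call without any 1 number; in the RefSeq table its span overlaps that of another gene that rose in IFNT against control with the block. Shared exons were not looked for and the strand used in counting is not stated, so the KCNMB4 counts are uncertain. By RefSeq, 32 members overlap another gene. For 10 of them, TRPM4, SCN9A and KCNMB1 included, the other gene is also in the count data. The counts of these 10 are uncertain for the same reason. KCNN4, the intermediate-conductance channel of blood and epithelial cells, had 13.8, 11.7, 13.4 and 38.0 with IFNT, against 8.62, 13.1, 10.5 and 15.2 in control. KCNN4 had 13.7, 42.5, 15.6 and 31.4 with IFNT+PGF2A, against 12.5, 14.9, 4.97 and 7.87 with PGF2A; it passed only with PGF2A and the block (1.27, adjusted p = 0.016), a call lost with the block without number 3 (0.093).

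Inward rectifiers hold cells near the resting potential. Of the 4 tested, those called rose, only KCNJ15 without the block. Of all genes 24% were called in IFNT against control (43.5% with the block) and 20.9% in IFNT+PGF2A against PGF2A (40.3%). Nothing is read about the class from 4 genes. KCNJ15 had 21.6, 46.9, 70.9 and 46.2 normalized counts with IFNT, against 20.1, 16.8, 13.3 and 4.07 in control. KCNJ15 had 27.3, 48.6, 55.0 and 67.9 with IFNT+PGF2A, against 11.5, 7.96, 15.9 and 4.92 with PGF2A. Neither pair of groups overlapped. The change was 1.82 (SE 0.50, adjusted p = 0.0142), a call lost without IFNT 3 (0.0501), number 2 (0.074) or number 3 (0.107), and with PGF2A 2.29 (SE 0.50, adjusted p = 0.00358), a call lost without number 2 (0.0504). KCNJ8, the pore of an ATP-sensitive potassium channel of vascular smooth muscle and pericytes, had 78.7, 185, 183 and 224 with IFNT, against 69.9, 141, 111 and 179 in control. KCNJ8 had 82.0, 131, 143 and 186 with IFNT+PGF2A, against 64.2, 117, 87.4 and 122 with PGF2A. It was higher in 4 of 4 pairs each time (0.40 and 0.45, adjusted p = 0.0215 and 0.0114 with the block), the first a call lost with the block without number 2 or 3 (up to 0.16) and the second a call lost with the block without number 3 (0.0922). KCNJ2, the classical strong inward rectifier, had 76.7, 163, 133 and 85.1 with IFNT, against 73.8, 97.1, 69.5 and 47.8 in control (0.64, adjusted p = 0.00696 with the block), a call lost with the block without number 2 or 3 (up to 0.066). In IFNT+PGF2A against PGF2A KCNJ2 passed in neither fit.

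Of the tandem-pore potassium channels, which carry the background leak current, KCNK2 rose and KCNK3 fell with the block. KCNK2, opened by stretch and lipids, had 19.7, 118, 89.4 and 16.4 normalized counts with IFNT, against 4.79, 8.41, 14.3 and 3.05 in control. KCNK2 had 11.7, 40.5, 61.3 and 14.2 with IFNT+PGF2A, against 3.83, 4.98, 2.98 and 5.90 with PGF2A. It had the largest positive change of the 72 members, with no overlap, and samples 2 and 3 were far above samples 1 and 4 in both groups with IFNT. KCNK2 reached 10 normalized counts in 8 of 8 samples with IFNT and 1 of 8 without it, so its inclusion and its direction are not independent. The change was 2.63 (SE 0.68, adjusted p = 0.0105), a call lost without number 2 (0.0871). With PGF2A it was 2.44 (SE 0.68, adjusted p = 0.0181), a call lost in 5 of 20 leave-outs (up to 0.146: IFNT+PGF2A 2 or 3, PGF2A 3, number 2 or 3). With the block both KCNK2 calls were kept without any 1 number (adjusted p up to 0.015, and with PGF2A up to 0.0189). KCNK3, an acid-sensitive leak channel, had 277, 464, 402 and 600.1 with IFNT, against 471, 878, 598 and 538 in control. KCNK3 had 269.6, 520.0, 437 and 453 with IFNT+PGF2A, against 464, 689.9, 599 and 507 with PGF2A. IFNT 4 was the one sample with IFNT above its pair, and the block gave -0.52 (adjusted p = 0.011) and -0.45 (adjusted p = 0.0259), the first a call lost with the block without number 1, 2 or 3 (up to 0.128) and the second likewise (up to 0.177).

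None of the 6 pore-forming calcium channel genes passed in any IFNT comparison with either fit: CACNA1A, CACNA1C, CACNA1D, CACNA1G, CACNA1H and CACNA1S. Of all genes 24% were called in IFNT against control (43.5% with the block) and 20.9% in IFNT+PGF2A against PGF2A (40.3%). Nothing is read about the class from 6 genes. CACNA1H, a low-voltage (T-type) channel, lay between 1246 and 2171 normalized counts over the 16 samples, and CACNA1C, an L-type channel, between 247 and 525. Accessory subunits carry the pore to the membrane. Of the 3 alpha2delta and 3 beta subunits tested, those called moved downward, and nothing is read from so few genes. CACNA2D1, an alpha2delta subunit, had 1058, 895, 1345 and 642 with IFNT, against 1634, 1436, 1976 and 1241 in control. CACNA2D1 had 1125, 767, 1236 and 1334 with IFNT+PGF2A, against 1659, 1297, 1926 and 1874 with PGF2A. It was lower in 4 of 4 pairs each time (-0.70, SE 0.22, adjusted p = 0.0317; with PGF2A -0.61, SE 0.22, adjusted p = 0.0658, and 0.0109 with the block, a call lost without number 1, 2 or 3, up to 0.0636). The first call was lost in 8 of 20 leave-outs (up to 0.122: IFNT 2 or 4, control 1, 2 or 3, and number 1, 2 or 3). CACNA2D2 had 46.2, 11.7, 40.1 and 66.7 with IFNT, against 59.4, 12.1, 30.4 and 78.3 in control. CACNA2D2 had 46.9, 7.08, 31.2 and 53.7 with IFNT+PGF2A, against 67.1, 15.9, 34.8 and 81.6 with PGF2A. Sample 2 was lowest in every group, and the gene passed only with PGF2A and the block (-0.60, adjusted p = 0.0148), a call lost with the block without number 1 or 2 (up to 0.123); without IFNT+PGF2A 2 the change in the fit without the block was 0.033. CACNB3, a cytoplasmic beta subunit, had 938, 725, 731 and 1246 with IFNT, against 919, 1026, 916 and 1419 in control. CACNB3 had 809.7, 711, 808 and 882 with IFNT+PGF2A, against 943, 1098, 871 and 1144 with PGF2A, and it too passed only with PGF2A and the block (-0.33, adjusted p = 0.0337), a call lost with the block without number 1, 2 or 3 (up to 0.194).

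Of the 13 TRP members, those called without the block rose: TRPC2, TRPM2, TRPM4 and TRPV4 in both IFNT comparisons. Of all genes 13.1% rose and 10.9% fell in IFNT against control, and 12.3% and 8.54% in IFNT+PGF2A against PGF2A. Nothing is read about the family from 13 genes. TRPC2, a pheromone-sensing channel in rodents, had 114, 81.1, 101 and 117 normalized counts with IFNT, against 46.9, 33.6, 42.8 and 25.4 in control. TRPC2 had 102, 89.0, 142 and 94.3 with IFNT+PGF2A, against 48.9, 43.8, 58.6 and 42.3 with PGF2A. Every sample with IFNT lay above every sample without it. The change was 1.48 (SE 0.22, adjusted p = 0.000109), and with PGF2A 1.12 (SE 0.22, adjusted p = 0.00142). TRPV4, opened by swelling, stretch and warmth, had 139.6, 195, 154 and 228 with IFNT, against 77.6, 81.3, 88.5 and 93.5 in control. TRPV4 had 139.7, 194, 162 and 143 with IFNT+PGF2A, against 82.4, 87.6, 95.4 and 88.5 with PGF2A. Its 8 samples without IFNT kept within a narrow band, and the change was 1.05 (SE 0.16, adjusted p = 0.000176), and with PGF2A 0.84 (SE 0.16, adjusted p = 0.00133).

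TRPM2, a calcium-permeable channel opened by ADP-ribose under oxidative stress, had 29.5, 81.1, 94.5 and 48.2 normalized counts with IFNT, against 13.4, 11.2, 17.1 and 8.13 in control. TRPM2 had 15.6, 49.6, 90.4 and 22.3 with IFNT+PGF2A, against 10.5, 15.9, 15.9 and 5.90 with PGF2A. IFNT and control did not overlap, while IFNT+PGF2A 1 lay just below the highest PGF2A samples. The change was 2.21 (SE 0.51, adjusted p = 0.00541), a call lost without number 2 (0.0664). With PGF2A it was 1.62 (SE 0.51, adjusted p = 0.0358), a call lost in 7 of 20 leave-outs (up to 0.149: IFNT+PGF2A 2 or 3, PGF2A 1 or 4, and number 2, 3 or 4). With the block both TRPM2 calls were kept without any 1 number (adjusted p up to 0.00429, and with PGF2A up to 0.0246). TRPM4, a channel that calcium opens and that passes sodium and potassium, had 944, 1441, 1281 and 1443 with IFNT, against 614, 721, 678 and 701 in control. TRPM4 had 969, 1509, 1317 and 978 with IFNT+PGF2A, against 687, 853, 661 and 676 with PGF2A. No groups overlapped (0.89, SE 0.16, adjusted p = 0.000696; with PGF2A 0.71, SE 0.16, adjusted p = 0.00464), and the second call was lost without number 3 (0.0922).

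TRP members that passed with the block alone fell, TRPC4 in both IFNT comparisons. TRPM6 and TRPC4AP passed in IFNT against control only, and in neither fit with PGF2A. With the block 21.3% of all genes rose and 22.1% fell in IFNT against control, and 20.9% and 19.5% with PGF2A. TRPC4, a calcium-permeable channel acting downstream of Gq receptors, had 827, 257, 636 and 937 normalized counts with IFNT, against 1043, 605, 1089 and 1823 in control. TRPC4 had 1008, 373, 803 and 1497 with IFNT+PGF2A, against 1290.5, 871, 1312 and 2452 with PGF2A. Samples 2 and 4 were the lowest and highest of every group, and the groups overlapped, while all 8 pairs were lower with IFNT (-0.83 and -0.75, adjusted p = 0.000398 and 0.000903 with the block, 0.231 and 0.302 without), and the calls were kept without any 1 number. TRPM6, a magnesium channel fused to a kinase, had 367, 361, 530.1 and 126 with IFNT, against 459.7, 413, 678 and 229 in control (-0.43, adjusted p = 0.0171 with the block, a call lost without number 1 or 3, up to 0.0637). TRPM6 had 360.4, 431, 537 and 230.2 with IFNT+PGF2A, against 482, 441, 737 and 274 with PGF2A. TRPC4AP, which binds TRPC4 and serves in a ubiquitin ligase, had 3977, 3329, 3578 and 4184 with IFNT, against 4433, 4169, 4423 and 5009 in control (-0.26, adjusted p = 0.0168 with the block, a call lost without number 2 or 3, up to 0.102). TRPC4AP had 3981, 3547, 3662 and 3634 with IFNT+PGF2A, against 4477, 3441, 4434 and 3689 with PGF2A. TRPM7, a second channel-kinase, had 391 normalized counts in library IFNT 4 and 1444 to 1605 in the other IFNT samples, against 964 in control 4 and 1520 to 1725 in the other control samples, and it passed in no fit.

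Markers of other cells moved with the same contrast. In IFNT against control, 2 of 12 endothelial markers rose without the block and 10 with it, and none fell; with PGF2A the counts were 2 and 11. The summed endothelial level was 13620 to 39930 normalized counts with IFNT and 10980 to 28540 in control, and 14530 to 32880 with IFNT+PGF2A and 10760 to 25560 with PGF2A. Of 12 pericyte and smooth muscle markers, 5 rose and 1 fell with the block in IFNT against control (summed level 127700 to 329700 with IFNT and 120600 to 279000 in control), and of 7 luteal steroidogenic markers 1 rose and 4 fell with it (84680 to 119000 with IFNT and 91790 to 144400 in control). Of 12 fibroblast markers, 2 rose and 6 fell with the block (summed level 674000 to 1261000 with IFNT and 870400 to 1400000 in control). No listed marker was at 0 in every sample. What part these had in the channel changes was not tested.

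PGF2A changed no channel transcript past the threshold in either setting. In PGF2A against control 0 of 72 members were called by limma, edgeR's quasi-likelihood test or DESeq2 (background 0% in limma and edgeR, 0.0142% in DESeq2), and 1 had an unadjusted p under 0.05 in limma (background 1.1%). With the block 0 were called (background 0.163%) and 13 of 72 had an unadjusted p under 0.05, a larger share than the background of 6.13%. In IFNT+PGF2A against IFNT 0 were called by the same 3 tools (background 0.00708% in limma and edgeR, 0.0637% in DESeq2), and 1 had an unadjusted limma p under 0.05 (background 2.52%). With the block these were 0 (background 0.701%) and 18 of 72, again a larger share than the background (9.77%). The median absolute log2 change of members was 0.20 and 0.30, beside 0.08 and 0.12 over all genes.

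**Figure D3:**
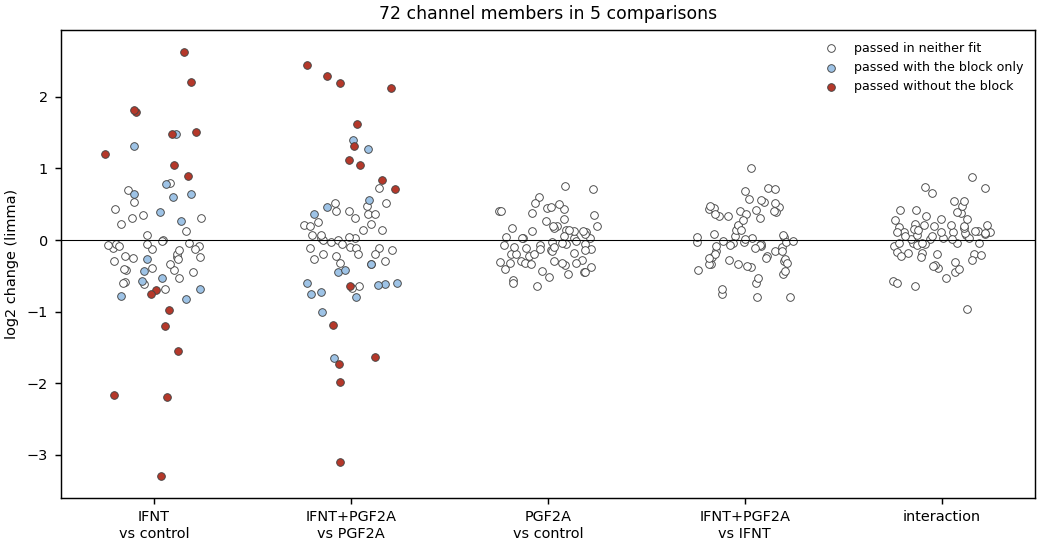
Log2 changes (y axis; limma) of the 72 channel members in each of 5 comparisons; each point is a gene, spread sideways at random. Red points passed without the block and blue points with it alone: calls appear in the IFNT comparisons only, while the PGF2A comparisons stay between -0.80 and 1.00.

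An inward rectifier (KCNJ2), accessory subunits (KCNE4, KCNIP4 and KCNMB4) and a silent pore subunit (KCNS3) were called in a PGF2A comparison with the block when library IFNT 4 or number 4 was left out. KCNJ2 had 99.6, 162, 108 and 109 normalized counts with PGF2A, against 73.8, 97.1, 69.5 and 47.8 in control, and 134, 182, 147 and 164 with IFNT+PGF2A, against 76.7, 163, 133 and 85.1 with IFNT. PGF2A and control did not overlap, as for 2 of 72 members and 1.25% of all genes, yet the test did not pass (0.75, SE 0.26, adjusted p = 1; adjusted p = 0.133 with the block). KCNMB4, whose values are given with the BK subunits, was the 1 member whose IFNT+PGF2A and IFNT groups did not overlap (1.31% of all genes; -0.60, SE 0.24, adjusted p = 0.997; adjusted p = 0.0885 with the block). With the block, leaving out library IFNT 4 made 3 calls: KCNJ2 (0.75, adjusted p = 0.0388) and KCNE4 (-0.34, adjusted p = 0.0293) in PGF2A against control (background 0.864%), and KCNMB4 (-0.72, adjusted p = 0.0141) in IFNT+PGF2A against IFNT (background 1.46%). Leaving out number 4 in all groups instead called KCNE4 (-0.28, adjusted p = 0.0144) in PGF2A against control (background 0.68%), and KCNMB4 (-0.70), KCNS3 (-0.50), KCNE4 (-0.24) and KCNIP4 (-0.61) in IFNT+PGF2A against IFNT (background 2.37%).

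Over all 8 same-number pairs with and without PGF2A, 4 members were higher with it every time (among them TRPC4, KCNJ2 and KCNQ5) and 5 lower every time (CACNA2D3, KCNMB1, KCNE4, KCNIP4 and KCNH2), 9 of 72 or 12.5% in all, while 6.25% of all genes kept a direction in 8 of 8 pairs. The interaction test called 0 of 72 members with limma, edgeR and DESeq2 (background 0%), with or without the block in limma. An unadjusted limma p under 0.05 was found for 0 members without the block (background 0.283%) and 2 with it (background 1.55%). The fitted interaction ranged from -0.96 (KCNS2) to 0.88 (SCN7A).

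The sample number took the largest raw share of the variation in many members. It has more levels than IFNT or PGF2A and takes a larger share even where nothing differs. The shares of the number and of IFNT are therefore not ranked against each other, only beside those of all genes. Splitting each member's variation over the 16 samples, the sample number took a median of 42.7% of the sum of squares, IFNT 18.4%, PGF2A 2.96% and their interaction 0.696%; over all genes the number took 35.5% and IFNT 22.6%. The number was the largest source in 39 members (54.2%, against 43.9% of all genes). At the IFNT end, SCN10A had 90.4% of its variation with IFNT, TRPV4 86.2%, SCN2A 84.4% and SCN8A 80.6%. SCN8A passed the filter only through samples without IFNT, so its share is not independent of its inclusion.

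**Figure D4:**
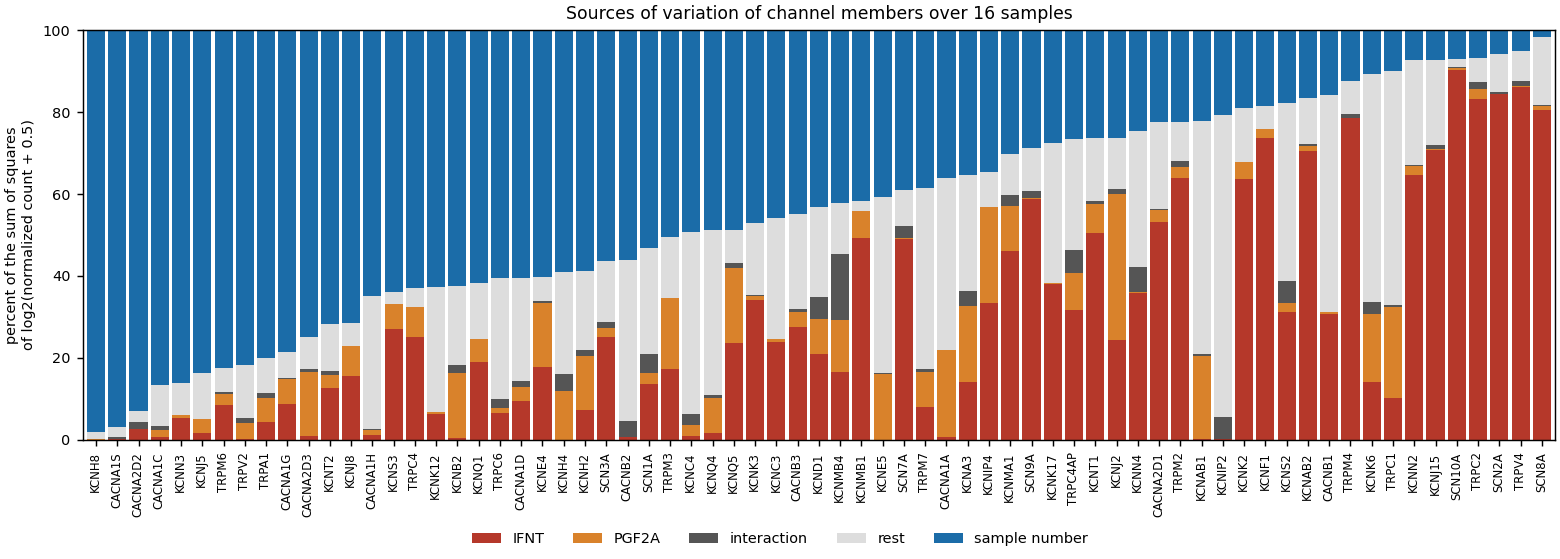
Percent of the sum of squares of log2(normalized count + 0.5) over 16 samples (y axis) taken by IFNT, PGF2A, their interaction, the sample number and the rest, for 69 of the 72 channel members, ordered by the share of the sample number. KCNH8 (98.2%) and CACNA1S (97%) stand at the end with the number, SCN8A and TRPV4 at the other.

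KCNH8 was found almost only in number 4, and other members stood apart there. KCNH8, a potassium channel of the ELK group, had 31.8, 27.4, 40.3 and 35.6 normalized counts in number 4 of the IFNT, IFNT+PGF2A, PGF2A and control groups, and 0 to 0.977 in the other 12 samples, so it passed the filter through number 4 alone. KCNJ5, a G protein-gated inward rectifier, had 2.95, 1.95, 12.3 and 59.5 with IFNT, 16.6, 3.04, 9.35 and 77.1 with IFNT+PGF2A, 4.79, 4.98, 5.96 and 58.0 with PGF2A and 1.92, 2.80, 11.4 and 28.5 in control, with number 4 highest in every group. CACNA1S, the calcium channel of skeletal muscle, had 98.3, 132, 29.8 and 6.16 with IFNT, 95.7, 107, 29.1 and 5.07 with IFNT+PGF2A, 61.3, 116, 32.8 and 8.85 with PGF2A and 70.9, 126, 30.4 and 3.05 in control, with number 4 lowest and number 3 next in every group. In all, 7 members were higher and 5 lower in number 4 than in the mean of numbers 1 to 3 by at least 1 on the log2 scale, 9.72% and 6.94% of them. KCNH8, KCNJ5 and KCNB2 are among the 7 and would not have passed the filter without number 4. For these genes inclusion and a higher value in number 4 are not independent. Of all 14122 genes 266 were higher and 395 lower by as much, 1.88% and 2.8%. The summed pericyte and smooth muscle marker level was 235100 to 329700 normalized counts in number 4 and 112600 to 147500 in numbers 1 to 3; its part in these differences was not tested.

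**Figure D5:**
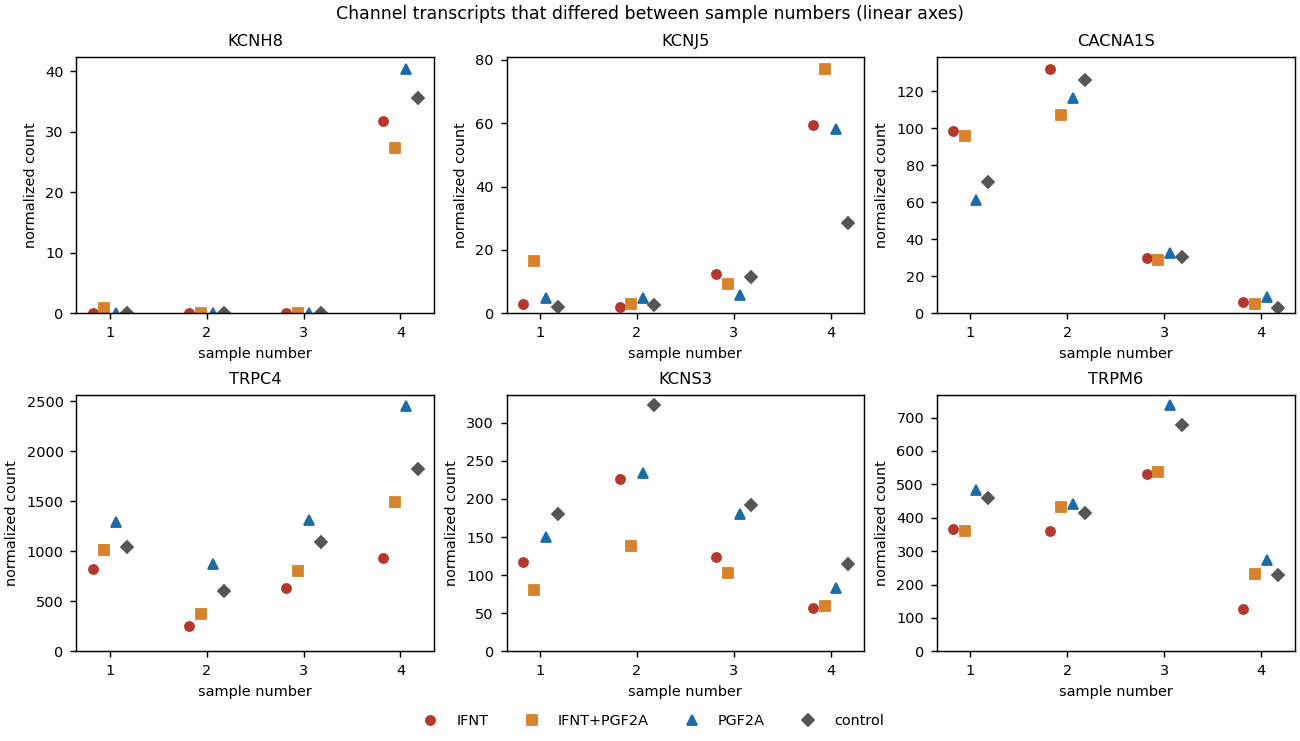
Normalized counts (y axes, linear) of 6 channel transcripts by sample number (x axis), with 1 symbol per group. KCNH8 and KCNJ5 are high and CACNA1S low in number 4 whatever the treatment, and TRPC4, KCNS3 and TRPM6 differ between numbers by more than between groups.

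The other 33 members were called in no comparison with either fit. Their log2 changes lay between -0.61 and 0.79 in IFNT against control and between -0.64 and 0.73 in IFNT+PGF2A against PGF2A, with a median SE of 0.36, so small changes were not detectable at this spread. At the edge of the filter, KCNT1 and KCNH8 reached 10 normalized counts in 4 samples, KCNB2 in 5 and KCNIP2 in 6, while KCNMB3, KCNK1, KCNK5 and KCNG1 reached it in 3 and were left out. Of the 71 genes left out, 13 reached 10 in at least 1 sample, and the highest value was 20.3; each had at least 1 read in the 16 samples.

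Channel partners and calcium-handling genes outside the 4 name families were listed for comparison: 54 of 56 were in the table and 43 could be tested. In IFNT against control 4 rose and 8 fell (10 and 11 with the block), and in IFNT+PGF2A against PGF2A 5 rose and 6 fell (11 and 11 with the block), with medians of 0.023 and 0.0056 on the log2 scale. Of all genes 24% were called in the first comparison (43.5% with the block) and 20.9% in the second (40.3%). CNGB1, a subunit of cyclic nucleotide-gated channels, averaged 91.5 ± 15.6 normalized counts with IFNT and 21.3 ± 9.29 in control (2.16, SE 0.29, adjusted p = 5.14e-05), and STIM2, a calcium sensor of the endoplasmic reticulum, 1104 ± 137 and 727.7 ± 50.9 (0.60, SE 0.12, adjusted p = 0.00164; SD, n = 4 each). MCOLN1, a lysosomal cation channel, averaged 1881 ± 340.4 with IFNT and 3218 ± 396.5 in control (-0.78, SE 0.12, adjusted p = 0.000125), and HVCN1, a proton channel, 35.7 ± 8.28 and 82.3 ± 21.8 (-1.18, SE 0.24, adjusted p = 0.00168). With PGF2A, CNGB1 rose by 1.79 and STIM2 by 0.61, and MCOLN1 changed by -0.79 and CNGA1, another cyclic nucleotide-gated subunit, by -1.14. PGF2A called none of the 43 without the block, and 1, MCOLN3, with it in IFNT+PGF2A against IFNT.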

How the data were processed

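RNA from 16 samples was sequenced. The authors deposited, for every gene, values that are size-factor normalized read counts, that is, a signal made by dividing reads by 1 factor per sample. The tools named, per the submitters' processing notes, are RSEM 1.2.8, DESeq2 with no version, HISAT2 2.0.4 and Bowtie2 2.2.5. Build, annotation and strand use were not given in the sources read, and reads shared between similar genes are split by estimation in RSEM. Per the file headers, the authors also deposited log2 fold changes with their errors, test statistics (a score) and p-values for 7 comparisons, of which only the adjusted p-values and directions are quoted, as the authors' own.

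The table of all 16 samples was used. Its values came out as whole reads for 100% of genes (tolerance 0.001), and these recovered reads, 23786067 to 25906276 per sample, served the count tests. The 14122 of 18705 genes that reached 10 normalized counts in 4 or more samples were tested with limma 3.58.1 in R 4.3.3, with the trend option, on log2(normalized count + 0.5), with 4 group means over all samples. P-values were adjusted by Benjamini-Hochberg over all tested genes, with a threshold of 0.05, for 5 comparisons: 4 between groups and the interaction. Members, classes, the list of channel partners, 2 treatment-check genes and 10 marker lists were chosen with earlier results of these data known. A member was given in full if it passed without the block, or with it and with the same sign in 4 of 4 pairs, up to 30 a comparison. Transcript lengths were not used, so levels are not compared between genes. Counts cover all 72 members, but 3 of them are not reported singly here.

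Sample numbers were taken from the labels. Deviations from the group means correlated at 0.352 to 0.719 (median 0.64) in the 24 same-number pairs, and at most at 0.0402 in 72 other pairs, so the numbers pair the samples by a rule of 0.1; the labels do not say what a number marks. The fit with the number as a block is given where it changes a call. Alternatives were pseudocounts of 0.1 and 1, no filter, no intensity trend, TMM scaling, the 2 compared groups alone, edgeR 4.0.16 and DESeq2 1.42.0 on the recovered reads, the block, and leaving out each sample or number. The limma and edgeR fits, with and without the block, and the DESeq2 fit were tested on simulated data. Intervals of single low counts are not given, and the limits stated cover the spread between samples.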

Additional observations from a re-analysis of the deposited data

Results flagged for a closer look

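In 288 groups of 4 samples (72 members in 4 groups), 18 samples lay far from the other 3 of their group by the 95% limit of Dixon's test. Chance alone picks about 1 group in 20, which is near the rate found. Of the 18, 9 have number 4. These include the flags of KCNH8 and KCNJ5, which would not have passed the filter without number 4, so the 9 are not independent of inclusion.

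KCNH8 stood out in number 4 of every group, with 31.8 normalized counts in IFNT 4, 27.4 in IFNT+PGF2A 4, 40.3 in PGF2A 4 and 35.6 in control 4, against 0 to 0.977 elsewhere. It passed the filter through these samples alone, so its flags in number 4 are not independent of its inclusion. KCNE5, an accessory subunit, had 38.0 in IFNT 4 beside 3.08 to 8.85, and 28.5 in PGF2A 4 beside 11.5 to 13.9. KCNJ5 had 58.0 in PGF2A 4 beside 4.79 to 5.96. KCNN4 had 38.0 in IFNT 4 beside 11.7 to 13.8, and TRPM7 was low there, at 390.9 beside 1444 to 1605.

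SCN10A had 58.7 in IFNT+PGF2A 2 beside 28.0 to 31.3, and 212.1 in PGF2A 2 beside 117.8 to 127.9, so number 2 was high with and without IFNT. Also in PGF2A 2, CACNA1H was low at 1394 beside 1740 to 1797, while KCNJ2 had 162.3 beside 99.6 to 109.2 and TRPM4 853.2 beside 660.5 to 686.9. KCNN3, a calcium-activated channel, had 133.8 in IFNT 2 beside 35.9 to 49.2.

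In the control group, KCNN2 had 36.4 in control 1 beside 18.3 to 19.6, SCN2A 74.7 in control 1 beside 62.8 to 64.4, and KCNT1 5.60 in control 2 beside 2.86 to 3.05.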

How the results depend on the processing

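With the replicate block, the number of members called in IFNT against control was 32 in limma and 35 in edgeR, against 17 without it, and in IFNT+PGF2A against PGF2A 33 and 35, against 16; the block ended no call and made none in the PGF2A comparisons or the interaction. Leaving out 1 sample or number gave 10 to 20 and 8 to 18 calls in the IFNT comparisons without the block, with 10 without number 2 and 11 without number 3 in the first and 8 without number 3 in the second. With the block and 1 number left out these were 25 to 38 and 23 to 37 (in the first, 30, 26 and 38 without number 1, 2 and 4, and in the second 25 and 37 without number 2 and 4). Without number 4 the blocked fit also called 1 member in PGF2A against control and 4 in IFNT+PGF2A against IFNT. A blocked fit without library IFNT 4, chosen after seeing the data, called 39 and 39 in the IFNT comparisons, 2 in PGF2A against control and 1 in IFNT+PGF2A against IFNT. The cause of these shifts was not tested, beyond the fewer samples of each fit. CACNA2D2 in IFNT+PGF2A against PGF2A was -0.60 with all samples and 0.033 without IFNT+PGF2A 2 (adjusted p = 0.983), and reached -1.05 without PGF2A 2. Calls of members described one by one were lost 70 times over the leave-outs of the fit without the block, in 13 members. Among the calls made without the block, few were lost when the blocked fit left out 1 number. These were KCNJ15 in IFNT against control (without number 3, 0.0581) and KCNN2 with PGF2A (without number 1, 0.0706, or 4, 0.051). Calls kept in all 20 leave-outs numbered 8 in IFNT against control (among them SCN10A, SCN2A, SCN8A, TRPC2, TRPM4, TRPV4, KCNF1) and 6 with PGF2A (among them SCN10A, SCN2A, TRPC2, TRPV4, KCNF1). SCN8A is there with the limit that it passed the filter only through samples without IFNT.

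Pseudocounts, filters, trend and TMM scaling ended no member's call; with the 2 compared groups alone CACNA2D1 (adjusted p = 0.0735), KCNAB2 (0.0568) and KCNJ15 (0.0501) lost theirs in IFNT against control, and TRPM2 (0.0625) with PGF2A. DESeq2 added SCN9A (0.00619), KCNMB1 (0.0315) and KCNMB4 (0.0494) in IFNT against control, and CACNA2D1 (0.0396) and KCNN4 (0.0392) with PGF2A. Channels under 10 normalized counts could not be tested at this depth, and 4 samples a group limit the changes that can pass.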

Other observations

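Markers of further cell types were summed in the same samples. Of 4 large luteal cell markers 1 rose in IFNT against control (2 with the block), and their summed level was 22090 to 49420 normalized counts with IFNT and 17190 to 40370 in control. Of 9 macrophage markers 7 were above the filter and 1 rose (605.7 to 852.9 with IFNT and 502.8 to 679.4 in control). Of 9 T and NK cell markers 2 were above the filter and 1 rose (92.3 to 126.8 and 50.8 to 85.2), and of 6 B cell markers 2 were above the filter and both rose (28.7 to 61.5 and 7.47 to 15.2). Of 7 neutrophil and red cell markers 4 were above the filter and 1 rose (499.6 to 2654 and 401.6 to 4326). Both treatment-check genes, MX1 and ISG15, rose; ISG15 averaged 33930 ± 7474 with IFNT and 361 ± 164 in control (SD, n = 4 each).

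In the authors' deposited tables, 20 members had an adjusted p under 0.05 for IFNT over control (12 higher, 8 lower) and 19 for IFNT+PGF2A over PGF2A (11 higher, 8 lower). Of the genes tested here that have an adjusted p in the authors' deposited tables, 20.8% of 14105 and 30.9% of 14109 were under 0.05 in these 2 tables. In the authors' deposited tables the same count was 0 for PGF2A over control, 0 for IFNT+PGF2A over IFNT, 22 for the main effect of IFNT (33.4% of 14106 genes), 0 for that of PGF2A and 0 for the interaction. The test statistic in the authors' deposited table of IFNT+PGF2A over PGF2A has the sign opposite to its fold change, and the fold change was used.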
